A study of Mus musculus with 54 samples.

Results

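A set of 127 genes rose at least 2-fold during the first day after mouse muscle progenitors were switched to differentiation medium and then fell at least 2-fold during the second day, in wildtype cells and in cells without emerin alike. Emerin is a protein of the inner nuclear membrane, and its loss or mutation causes a form of Emery-Dreifuss muscular dystrophy. The members were taken from 15117 named genes, those with a numeric GeneID in the tables of the first and second day in both of these lines. A member's log2 change, taken as log2 of the ratio of the later to the earlier group mean after adding 1 to each, was at least 1 from T0 to T24 and at most -1 from T24 to T48 in each line, and its T24 mean was at least 50 in all 4 tables. Among the 10760 named genes that met that minimum, the members were 1.18%. All 127 were listed in all 27 tables, and 126 were annotated as protein coding. The single exception was Ptprv, annotated by RefSeq as a transcribed pseudogene.

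RNA-seq was made from H2K myogenic progenitors, a conditionally immortal mouse muscle cell, in 6 lines at T0, T24 and T48 (0, 24 and 48 h after the switch). The 18 groups were labelled with 3 replicates apiece, 54 libraries in all. The lines were wildtype, EMD-/y (emerin null), and EMD-/y cells that carried a lentivirus encoding wildtype emerin (+EMD) or one of the disease mutants S54F, del95-99 and Q133H. All lines proliferated in serum with γ-interferon and were moved to horse serum, without interferon, at T0. The study's methods also raise the temperature at that switch, whereas the growth notes of the samples give the same temperature before and after it. The 4 transduced lines were selected with puromycin, which the growth notes keep in the medium of the mutant lines on all days. H2K cells carry a temperature-sensitive large T antigen, a viral protein that binds p53, under an interferon-inducible promoter, and each genotype is represented by 1 line. The loss of interferon, any change of temperature and differentiation itself came together at T0 in every line and cannot be told apart in the first-day changes, p53 targets included. No vector-only line is analysed here, so the transgene, the selection and the history of a transduced line cannot be told apart. The deposited values were the authors' means of normalized counts per group, with no value per replicate, so no replicate error, n or p-value is given with any value here and no difference is set against the spread between replicates. The authors' own test results stand in the tables and were not used.

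The group means summed to between 16719491 and 21128040 normalized counts per group, and the depth of each library is unknown. Emd, which encodes emerin, had means of 987 to 1962 in wildtype, of 0.457 to 3.52 in EMD-/y and of at most 2.67 in the transduced lines, so its counts check the deletion but do not show the transgenes. The summed level of 8 myogenic markers was 36685 to 160493 over the 18 groups, against 21.1 to 100 for 5 fibroblast markers, 17.0 to 53.3 for endothelial, 16.8 to 122 for blood cell, 6.67 to 24.8 for Schwann cell and 0.151 to 11.8 for adipocyte markers. Smooth muscle markers summed to 14866 to 98503, mostly Acta2, which myoblasts also express, and chondrocyte markers to 258 to 1198, mostly Sox9. Sox10 (Schwann cell) and Cidec (adipocyte) were never listed. In RNA of whole cultures, fewer cells that express a gene and less RNA of it per cell cannot be told apart.

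Of the members, 9 stood on a list of p53 targets. The factor p53 is stabilized by stress and DNA damage and switches on genes for growth arrest, cell death and DNA repair, together with its own inhibitors, of which the ubiquitin ligase Mdm2 is the best known. Because p53 induces the ligase that removes it, its targets are known to rise in pulses. Muscle progenitors leave the cell cycle as they differentiate, and the p53 target Cdkn1a (p21) is known for its part in that exit.

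The p53 half-site (by its standard consensus, searched on both strands, which read the same) was found in the promoters of 17 of the 105 members with an entry in the RefSeq promoter table, counting 250 bases before to 50 after the start. That is 16.2%, beside 8.23% of 8700 promoters of named genes with a T24 mean of at least 50 and 9.55% of all 27025 promoters. The p53 inhibitors Mdm2 and Ppm1d, the steepest riser of the set (1700007K13Rik) and Ddit4l were chosen after the values were seen. The upstream 250 bases of these 4 members, which hold a half-site, are shown. They are the 5′ to 3′ sequence of GRCm38.p6 before the annotated start, with the half-site in capitals.
Mdm2, chr10:117710759-117711008 on the minus strand: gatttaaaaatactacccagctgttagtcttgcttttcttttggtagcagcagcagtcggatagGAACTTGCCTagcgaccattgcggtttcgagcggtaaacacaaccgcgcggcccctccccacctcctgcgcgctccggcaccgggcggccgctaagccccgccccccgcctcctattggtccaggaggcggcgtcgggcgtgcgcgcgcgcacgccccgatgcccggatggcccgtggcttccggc
Ppm1d, chr11:85311004-85311253 on the plus strand: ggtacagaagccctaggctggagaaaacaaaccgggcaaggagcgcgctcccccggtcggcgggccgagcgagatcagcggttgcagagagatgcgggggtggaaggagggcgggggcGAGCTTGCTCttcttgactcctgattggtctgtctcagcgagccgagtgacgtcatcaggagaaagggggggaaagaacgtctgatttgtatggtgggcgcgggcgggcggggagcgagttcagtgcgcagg
Ddit4l, chr3:137623422-137623671 on the plus strand: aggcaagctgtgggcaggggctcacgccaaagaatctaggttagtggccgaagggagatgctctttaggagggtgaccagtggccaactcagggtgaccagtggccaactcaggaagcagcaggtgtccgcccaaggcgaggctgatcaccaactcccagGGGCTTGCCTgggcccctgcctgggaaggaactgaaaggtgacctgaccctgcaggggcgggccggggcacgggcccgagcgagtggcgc
1700007K13Rik, chr2:28466325-28466574 on the minus strand: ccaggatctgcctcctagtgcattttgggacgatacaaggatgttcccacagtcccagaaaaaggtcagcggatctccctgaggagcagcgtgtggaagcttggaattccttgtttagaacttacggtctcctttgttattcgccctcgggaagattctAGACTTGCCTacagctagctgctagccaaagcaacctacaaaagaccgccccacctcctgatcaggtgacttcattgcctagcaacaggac
The half-site began 186 bases before the start in Mdm2, 132 in Ppm1d, 90 in Ddit4l and 91 in 1700007K13Rik. A second copy stood downstream of the start of 1700007K13Rik. The p53-responsive promoter known for Mdm2 lies in its first intron, outside the stretch shown. Of the other motifs searched on both strands, CAGCTG, the E-box that myogenic factors favour, was in 34 member promoters (32.4%), beside 17.8% of genes with a T24 mean of at least 50 and 18.3% of all promoters. The wider E-box CANNTG, which includes every CAGCTG, was in 71.4%, 66.2% and 75.0% of these. The remaining motifs gave 30.5%, 26.3% and 28.3% for TGGGAA (a core of the Notch effector site), 25.7%, 30.4% and 21.8% for ACGTG (a core of the hypoxia element), 41.0%, 43.7% and 41.1% for CCAAT, and 9.52%, 8.21% and 15.7% for TATAAA. A match is only a run of letters in this window, and no binding was measured.

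In wildtype and EMD-/y, the values that chose the members are given as a description. Members had a median rise of 2.03 and a median later change of -1.49 (log2) in wildtype, and of 2.07 and -1.62 in EMD-/y. Over the genes with a T24 mean of at least 50, a rise of at least 2-fold was seen in 10.8% in wildtype and 9.90% in EMD-/y, and a later fall of that size in 10.9% and 9.44%. Just inside the threshold stood Tmem14a, Btg2 and Trp53i11, whose smallest change was 1.00 each. Just outside stood Svop (0.996), Dffb (0.994) and the p53 target Sesn2 (0.988). At T48, 42 of the 127 members in wildtype and 41 in EMD-/y had a net change from T0 of at least 1 on the log2 scale (14.9% and 15.0% of genes with a T24 mean of at least 50), so most had come back to within 2-fold of where they began.

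The steepest riser in wildtype was 1700007K13Rik (GeneID 69327, chr2:28462001-28466324), a gene without a settled name. Its group means at T0, T24 and T48 were 5.81, 439.8 and 118 in wildtype, 12.6, 726 and 152 in EMD-/y, 7.67, 825 and 340.1 in +EMD, 32, 687 and 153 in S54F, 26.8, 919 and 629 in del95-99, and 113, 957 and 1585 in Q133H. It rose 64.7-fold in wildtype and 95.4-fold in +EMD but 8.39-fold in Q133H, the line with the highest T0 mean. Here and in what follows the T0 and T24 means come from the table of the first day and the T48 mean from that of the second, which was normalized on its own, and every change is taken within 1 table.

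Ranked by the smallest of the 4 changes of the rule, the leading 10 members were Nectin4, Cyyr1, Nipal4, Celf5, 9530053A07Rik, Mpp7, Angpt2, Insyn2a, Mab21l3 and Col9a3. Nectin4 (GeneID 71740), a cell adhesion receptor of epithelia, led them. Its means at T0, T24 and T48 were 4.83, 136 and 22.3 in wildtype, 3.88, 117 and 13.3 in EMD-/y, 3.28, 166 and 54.3 in +EMD, 5.85, 93 and 14.3 in S54F, 2.82, 98.4 and 62.1 in del95-99, and 9.59, 78.9 and 104 in Q133H. The T0 means were below 10 in every line, and the T48 mean stayed below the T24 mean in every line but Q133H.

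The 5 members with the highest T24 means in wildtype were Mdm2, Trp53inp1, Sulf2, Ptpn14 and Gapdh. Per kilobase of transcript their wildtype T24 means were 4671 for Gapdh, 4038 for Mdm2, 2336 for Sulf2, 2038 for Trp53inp1 and 686 for Ptpn14. Sulf2 removes sulfate groups from heparan sulfate outside the cell, and Ptpn14 is a phosphatase that restrains the growth regulator Yap.

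**Figure D1:**
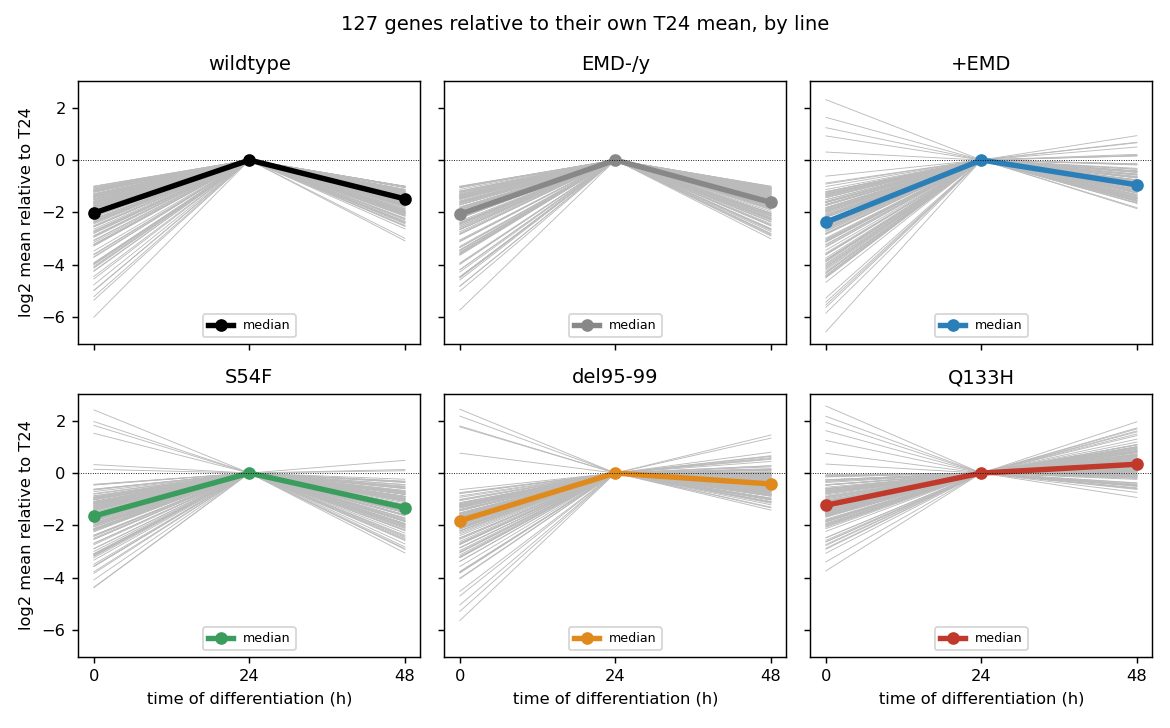
Log2 group mean relative to T24 (y axis) against hours of differentiation (x axis) for the 127 members, one panel for each line, with 1 grey line for each gene and the coloured line for their median. In wildtype and EMD-/y every gene falls away from T24 on both sides, as the rule required, while the median falls by 0.95 after T24 in +EMD and is 0.34 above T24 in Q133H.

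The libraries of the 4 transduced lines played no part in choosing the members. All 4 lines were made from EMD-/y, which the rule used, so they share its background and are not an independent check of the set. Most members rose in them during the first day: 119 of 127 in +EMD (8.26% of genes with a T24 mean of at least 50), 102 in S54F (7.58%), 116 in del95-99 (5.40%) and 82 in Q133H (3.97%). The median rise was 2.38 in +EMD, 1.64 in S54F, 1.83 in del95-99 and 1.23 in Q133H. In all 6 lines together, 78 members rose, a joint count that was not taken over all genes. The rule required the rise in wildtype and EMD-/y.

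The second day set the lines apart. A fall of at least 2-fold from T24 to T48 was seen in 56 members in +EMD (8.46% of genes with a T24 mean of at least 50), 85 in S54F (9.75%), 13 in del95-99 (4.43%) and 0 in Q133H (3.91%). The tables of each line against wildtype on each day were not counted for falls alone. In them 88 members in +EMD and 89 in S54F rose and then fell 2-fold. The median later change was -0.95 in +EMD, -1.32 in S54F, -0.42 in del95-99 and 0.34 in Q133H. Members whose T48 mean was below their T24 mean by any amount numbered 119, 124, 106 and 32 of 127 in the same order, beside 50.2%, 50.3%, 49.9% and 49.3% of genes with a T24 mean of at least 50. The rule asked for a fall in wildtype and EMD-/y, so other lines can stand above these by selection alone, and no comparison of the members' later change with wildtype is counted. Where such values stand side by side for single genes below, they are given as a description.

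Both changes together, a peak at T24 of at least 2-fold on each side, were found in 55 members in +EMD (1.05% of genes with a T24 mean of at least 50, 1.21% of all named genes listed), 71 in S54F (0.818% and 1.20%) and 13 in del95-99 (0.270% and 0.359%). Taken from the tables of each line against wildtype on each day, the counts were 88 in +EMD, 89 in S54F and 23 in del95-99, so the gap between +EMD and S54F rests on the choice of tables. The share of all genes that peaked was not taken from those tables. In Q133H no member peaked, beside 0.0558% of the 10759 genes with that minimum (6 genes) and 0.110% of all named genes listed. At so small a share, a set of this size would seldom hold any peak. The absence of peaks in Q133H thus does not set the members apart from other genes of that line. The 8 members that peaked in +EMD, S54F and del95-99 were 9530053A07Rik, Mctp2, Slc27a3, Hic1, Mybl1, Ddias, Calhm2 and Fads2. Another 44 members peaked in none of the transduced lines. Neither of these joint counts was taken over all genes.

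The order of the 4 transduced lines, none of which entered the rule, was also taken gene by gene. Q133H had the highest later change of the 4 in 116 of the 127 members and the smallest rise in 101. The largest rise was in +EMD in 94 members. In 87 members the later change ran from Q133H through del95-99 and +EMD down to S54F. The order was not taken over all genes, so how far it is particular to the members is not known. Of all genes with a T24 mean of at least 50, Q133H also had the smallest shares that rose on the first day (3.97%) and fell on the second (3.91%). Neighbours in this order could not be tested against each other, since the tables hold group means only.

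**Figure D2:**
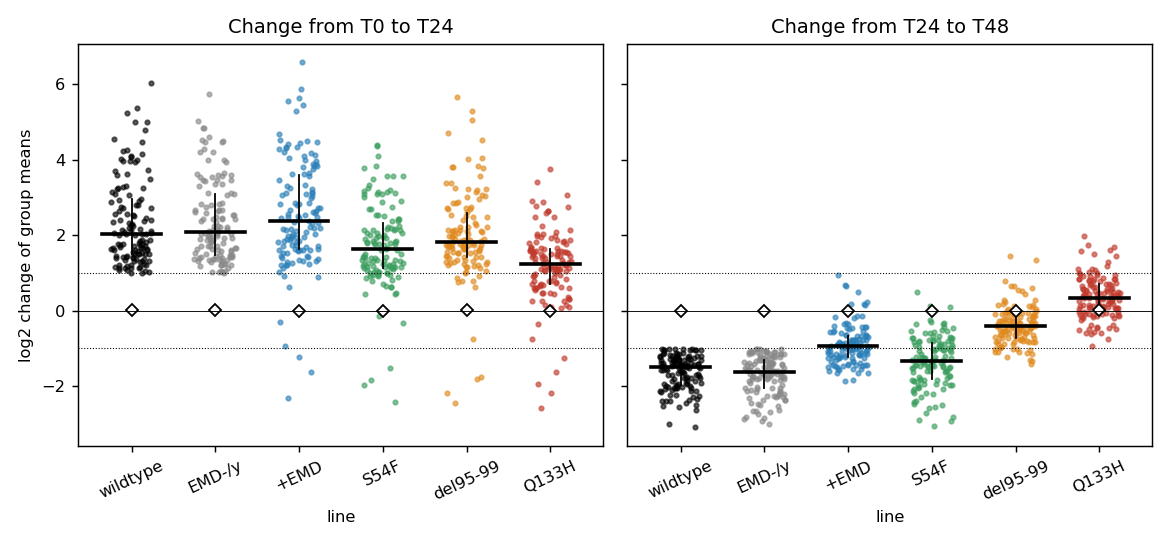
Log2 change of the 127 members from T0 to T24 and from T24 to T48 (y axis) in the 6 lines (x axis), with the median as a black bar, the quartiles as a vertical line and the median of the 10760 genes with a T24 mean of at least 50 as a white diamond. By the rule, every later change in wildtype and EMD-/y is at most -1. Among the transduced lines the median later change is -0.95 in +EMD, -1.32 in S54F, -0.42 in del95-99 and 0.34 in Q133H. The Q133H quartiles of -0.02 and 0.71 lie around 0, and the diamonds stay near 0.

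Other gene groups moved differently in the same libraries. Over all genes with a T24 mean of at least 50, 10.8%, 9.90%, 8.26%, 7.58%, 5.40% and 3.97% rose on the first day in wildtype, EMD-/y, +EMD, S54F, del95-99 and Q133H, and 6.58%, 5.71%, 4.32%, 3.62%, 3.49% and 4.23% fell. On the second day 10.9%, 9.44%, 8.46%, 9.75%, 4.43% and 3.91% fell. Of 32 early muscle genes, such as contractile proteins and their regulators, 29 rose from T0 to T24 in wildtype, 25 in EMD-/y, 24 in +EMD, 23 in S54F, 3 in del95-99 and 0 in Q133H, where 20 fell. No muscle gene on the lists used here was a member. Of 35 mitosis genes, 34 fell from T24 to T48 in wildtype and 33, 33, 33, 33 and 32 in EMD-/y, +EMD, S54F, del95-99 and Q133H. Of 37 interferon-stimulated genes, 24, 27, 24, 18 and 18 fell during the first day in wildtype, EMD-/y, +EMD, S54F and del95-99, whereas in Q133H none fell and 20 rose. The part of these groups in the course of the members was not tested.

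Among the p53 targets, 9 of a list of 28 were members, namely Mdm2, Trp53inp1, Gdf15, Btg2, Zmat3, Tnfrsf10b, Pidd1, Dcxr and Ddit4. Of the 27 listed targets with a T24 mean of at least 50, 22 rose from T0 to T24 in wildtype, 22 in EMD-/y, 23 in +EMD, 21 in S54F, 23 in del95-99 and 16 in Q133H, and none fell by 2-fold in any line. These counts stand beside the shares of all genes that rose, 10.8% in wildtype to 3.97% in Q133H. From T24 to T48, 12, 11, 6, 6, 3 and 0 targets fell, beside 10.9% of all genes in wildtype and 3.91% in Q133H, and none of the 27 rose by 2-fold. With 27 targets, the count of 0 in Q133H is near that share. The median rise was 1.68, 1.55, 1.99, 1.40, 1.68 and 1.08, beside medians of all genes within 0.02 of 0. The median later change was -0.92, -0.87, -0.77, -0.59, -0.46 and 0.12. Of the transduced lines, del95-99 and Q133H had the highest median later changes of the list, as of the members. The 9 shared genes entered both counts, and the rule fixed their rise and fall in wildtype and EMD-/y. Among the 18 targets outside the set, the median later change was -0.57 in +EMD, -0.30 in S54F, -0.31 in del95-99 and -0.01 in Q133H. Without the shared genes, del95-99 thus did not stand above S54F. Perp, the listed target left out of these counts, had a wildtype T24 mean of 30.8. Its later changes were -1.32 in wildtype, -1.74 in EMD-/y, 0.82 in +EMD, -2.16 in S54F, 1.16 in del95-99 and 1.61 in Q133H.

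Mdm2 (GeneID 17246, chr10:117688875-117710758), the ubiquitin ligase that removes p53, had the highest T24 mean of the members in wildtype. Its means at T0, T24 and T48 were 2626, 12525 and 5648 in wildtype, 2679.9, 10143 and 4472 in EMD-/y, 1885, 11536 and 5787 in +EMD, 3208, 11219 and 5606 in S54F, 3316, 17403 and 10845 in del95-99, and 5720.2, 19485 and 18426 in Q133H. It rose between 3.41-fold (Q133H) and 6.12-fold (+EMD). From T24 to T48 it was 2.06-fold lower in wildtype, 1.88-fold in +EMD, 1.86-fold in S54F, 1.56-fold in del95-99 and 1.06-fold in Q133H, in which its T48 mean was the highest of the 6 lines.

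Trp53inp1 (GeneID 60599, chr4:11156441-11174379), a nuclear partner of p53, had means at T0, T24 and T48 of 708, 10989 and 3046 in wildtype, 628, 7266 and 2048 in EMD-/y, 340.3, 8746 and 3647 in +EMD, 1276, 8548 and 3170.2 in S54F, 1088, 11357 and 8019 in del95-99, and 3152, 10177 and 15289 in Q133H. The T24 means of the 6 lines were closer together than the T0 and T48 means. Q133H stood 2.03 (log2) above wildtype at T0 and had its highest mean at T48, with a later change of 0.57 beside -1.75 in wildtype.

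Pidd1 (GeneID 57913), the scaffold of a complex that activates caspase-2, had means at T0, T24 and T48 of 271, 1329.5 and 251 in wildtype, 277, 1135 and 218 in EMD-/y, 325, 1858 and 646 in +EMD, 332, 1116 and 262 in S54F, 425, 1807 and 1096 in del95-99, and 691, 1677 and 1642 in Q133H. In wildtype, EMD-/y and S54F it returned at T48 to about its T0 mean. In +EMD it stood above it, and in del95-99 and Q133H it was 1.61-fold and 1.03-fold below its T24 mean.

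Ddit4l (GeneID 73284, chr3:137623672-137628332), a relative of the stress-induced mTORC1 inhibitor Ddit4, was not on the p53 list. Its means at T0, T24 and T48 were 103, 769 and 189 in wildtype, 152, 915 and 236 in EMD-/y, 72.6, 1249 and 426 in +EMD, 197, 868 and 289.6 in S54F, 285, 2061 and 1142 in del95-99, and 806, 2349 and 3602 in Q133H. Against wildtype in the tables of each day, Q133H was higher by 2.82 at T0, 1.46 at T24 and 3.97 at T48 (log2). The fall from T24 to T48 was 3.77-fold in wildtype, where the rule required at least 2-fold, and 1.76-fold in del95-99. In Q133H the T48 mean was the highest of the 18.

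The remaining p53 targets of the set also had their highest later change of the transduced lines in Q133H. The antiproliferative factor Btg2 had later changes of -1.04 in wildtype and 0.30 in Q133H (log2). The RNA-binding protein Zmat3 rose by 1.56 in wildtype, and its change was 0.60 in Q133H. The death receptor Tnfrsf10b, which has a near-identical copy in another gene, rose by 1.66 in wildtype and 1.08 in Q133H. Gdf15, a secreted stress cytokine, was already above its wildtype T0 mean of 35.2 in every other line, at 51.5 in EMD-/y and 91.3 in S54F. Dcxr, a reductase of sugars and carbonyls, had the widest rise of these in +EMD, 22.6-fold.

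Not every p53 target came back down. Cdkn1a, the arrest gene, rose by 2.48 in wildtype and changed by a further 0.81 from T24 to T48, and its later change was 0.53 to 0.89 in all 6 lines, Q133H included. The later change of Eda2r was 0.01 in wildtype and 0.68 in Q133H, and that of Pmaip1 0.12 and 0.31. Ccng1 changed by -0.85 in wildtype, short of the rule, and by 0.25 in Q133H. These 4 were picked after their values were seen, and the 18 targets outside the set had later changes from -3.17 to 0.81 in wildtype, of which 3 fell by 2-fold.

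**Figure D3:**
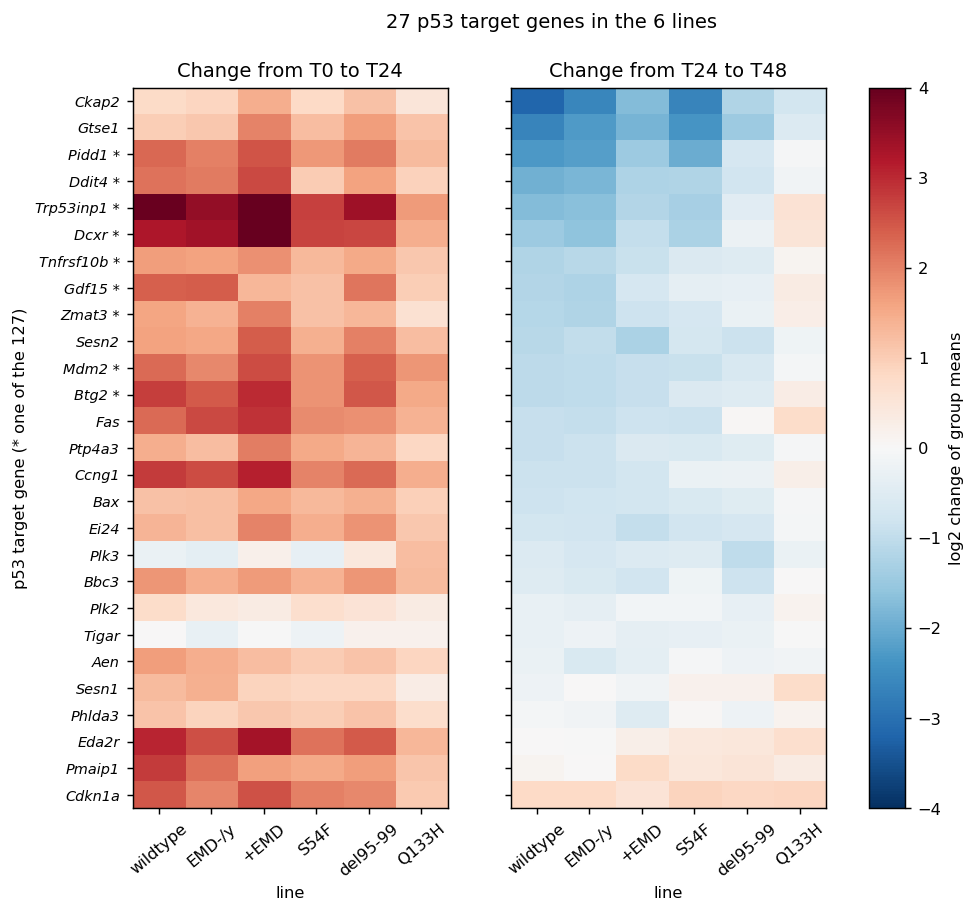
Log2 change of 27 p53 target genes (rows, sorted by the later change in wildtype) from T0 to T24 and from T24 to T48 in the 6 lines (columns), as a colour scale that saturates at 4. The first-day panel shows a rise in most genes of every line. In the second-day panel the Q133H column holds no gene that fell 2-fold, against 12 in wildtype. Of those 12, 9 are members, for which the rule required that fall, and 3 are not.

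Grouped by role after the values were seen, 67 of the members fell into 8 groups. The largest held 15 genes of the p53 circuit, arrest and cell death, which add to the list's genes Ppm1d, Apaf1, Dapk1, Trp53i11, Psrc1 and Hic1. In this group 15 rose in +EMD, 12 in S54F, 15 in del95-99 and 8 in Q133H, and 7, 7, 1 and 0 peaked. Of all 127 members, 119, 102, 116 and 82 rose and 55, 71, 13 and 0 peaked in the same lines. Counts of this and the following role groups stand beside these, and no group was tested against the whole set. A count of 0 peaks in Q133H, in the set or in a group, is near the share of all genes that peaked there. Ppm1d, the phosphatase that switches off p53 signalling, peaked in +EMD and had a later change of -0.20 in Q133H. Apaf1, the core of the apoptosome, had T0, T24 and T48 means of 926, 2502 and 1001 in wildtype and 1556, 3579 and 3778 in Q133H. The tumour suppressor Hic1, a transcriptional repressor, was the group's member that also peaked in del95-99, with a later change of -1.31.

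The 5 genes of DNA repair and damage tolerance were Polk, a polymerase that copies past damaged bases, the excision nuclease Ercc5, the repair scaffold Xrcc1, Rnf169 and Ddias. All 5 rose in +EMD and del95-99 and 3 in S54F and in Q133H, and 3, 3, 1 and 0 peaked in +EMD, S54F, del95-99 and Q133H. Ddias (GeneID 74041), known as a suppressor of death after DNA damage, had means at T0, T24 and T48 of 907, 2097 and 369 in wildtype, 855, 2029 and 390.1 in EMD-/y, 752, 2861 and 746 in +EMD, 1048, 2338 and 474 in S54F, 1168, 3405 and 1319 in del95-99, and 1694, 3629 and 2182 in Q133H. By T48 it had fallen below its T0 mean in wildtype, EMD-/y and S54F. Ddias was the member closest to a peak in Q133H, with a later change of -0.74, followed by Mybl1 (-0.63) and Ak4 (-0.59).

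Receptors and their partners made a group of 12. Of these, 11 rose in +EMD, 10 in S54F, 10 in del95-99 and 7 in Q133H, and 5, 6, 1 and 0 peaked. Notch3 (GeneID 18131, chr17:32120820-32166896), a Notch receptor of muscle progenitors and vascular muscle, had means at T0, T24 and T48 of 1507, 4719 and 1674 in wildtype, 1102, 4151 and 1672 in EMD-/y, 1161, 3857 and 1889 in +EMD, 1115, 4251 and 2071 in S54F, 1059, 3846 and 2815 in del95-99, and 1112, 2412 and 3543 in Q133H. Its Q133H T24 mean was the lowest of the 6 and its Q133H T48 mean the highest. Nrarp, a Notch target that dampens the pathway, had T0, T24 and T48 means of 19.8, 71.5 and 29.4 in wildtype and 35.2, 42.5 and 65.9 in Q133H. Over 17 Notch pathway genes with a T24 mean of at least 50, 7, 6, 5, 4, 5 and 1 rose in wildtype, EMD-/y, +EMD, S54F, del95-99 and Q133H, and 3, 2, 1, 0, 1 and 0 peaked. Of all genes with that minimum, 10.8% rose in wildtype and 3.97% in Q133H, and 1.54%, 1.63%, 1.05%, 0.818%, 0.270% and 0.0558% peaked in the 6 lines.

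The thyrotropin receptor Tshr had means at T0, T24 and T48 of 2.61, 59.9 and 19.6 in wildtype, 5.51, 98.8 and 26.3 in EMD-/y, 4.62, 108 and 42.4 in +EMD, 10.1, 94.3 and 23.6 in S54F, 6.6, 89.5 and 80.4 in del95-99, and 32.2, 144 and 305 in Q133H. In Q133H it stood 3.03 (log2) above wildtype at T0 and rose again after T24, by 1.01. The leukotriene receptor Ltb4r2 rose 37.5-fold in wildtype and 3.65-fold in Q133H. The ATP-gated channel P2rx7 had log2 differences from wildtype in Q133H of -1.32 at T0, -2.08 at T24 and 0.79 at T48. Cd80, a costimulatory ligand of T cells, had T0, T24 and T48 means of 64, 803 and 321 in wildtype and 468, 1315 and 1858 in Q133H. Angpt2, a ligand of the endothelial receptor Tie2, had T0, T24 and T48 means of 118, 523 and 93.3 in wildtype and 22, 40.2 and 119 in Q133H. The receptor tyrosine kinase Ret had a T24 mean below its T0 mean in S54F (-0.32) and Q133H (-0.35). Robo3, an axon guidance receptor, peaked in +EMD and S54F, and the retinol receptor Stra6 had first-day changes of 0.78 in del95-99 and 0.09 in Q133H.

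Of the 10 transporters and channels, 5 peaked in +EMD, 6 in S54F, 3 in del95-99 and 0 in Q133H. Slc5a3, which imports myo-inositol, was a member whose Q133H T24 mean was well above wildtype. Its means at T0, T24 and T48 were 372, 1191 and 273 in wildtype, 435, 1251 and 318 in EMD-/y, 676, 1667 and 575 in +EMD, 611, 1053 and 363 in S54F, 796, 2715 and 1290.2 in del95-99, and 943, 3872 and 2827 in Q133H. It peaked in del95-99 and changed by -0.46 after T24 in Q133H. Ano3, of the anoctamin family, stood higher than wildtype at T0 in all the other lines, by 1.28 in EMD-/y, 0.60 in +EMD, 1.94 in S54F, 2.46 in del95-99 and 3.36 in Q133H. The urate transporter Slc2a9 was lower than wildtype at T24 in all of them, with log2 differences of -1.74, -1.26, -1.78, -1.05 and -1.52.

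Keratins, junction proteins and other epithelial proteins, 7 genes seldom associated with muscle, had the highest median rise of the role groups in wildtype, 3.96. St14 (GeneID 19143), the membrane protease matriptase, had means at T0, T24 and T48 of 7.94, 195 and 70.7 in wildtype, 6.73, 173 and 57 in EMD-/y, 4.23, 118 and 87.2 in +EMD, 13.4, 127 and 42.6 in S54F, 11.2, 280.4 and 299 in del95-99, and 32.3, 220.5 and 662 in Q133H. Its T48 mean in Q133H was the highest of the 18 groups and the gene rose again after T24 there. Keratin 7 (Krt7) followed with T0, T24 and T48 means of 12.5, 127 and 47.4 in wildtype and 49.1, 196 and 413 in Q133H. Envoplakin (Evpl), a desmosome-associated protein, rose 50-fold in del95-99 and 10.6-fold in Q133H. The tight-junction protein Cldn15 was instead low in Q133H, with T0, T24 and T48 means of 8.45, 8.87 and 3.81 in Q133H beside 63.1, 158 and 39.3 in wildtype. All 7 peaked in S54F, 3 in +EMD, 1 in del95-99 and 0 in Q133H.

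Metabolic enzymes numbered 11, of which 10 rose in +EMD, S54F and del95-99 and 9 in Q133H, and 3, 6, 1 and 0 peaked in the same order. Lpin1 (GeneID 14245, chr12:16535669-16653903), the phosphatidate phosphatase of lipid synthesis, had means at T0, T24 and T48 of 112, 1267 and 584 in wildtype, 100.4, 1199.6 and 515 in EMD-/y, 103, 1019 and 602 in +EMD, 204, 1179 and 774 in S54F, 173, 1358 and 1608 in del95-99, and 442, 1549 and 3338 in Q133H. It fell short of a peak in +EMD and S54F and rose again in Q133H. The glycolytic Pfkl had later changes of -1.51 in wildtype and -0.39 in Q133H. Cbs, of homocysteine removal, had later changes of -2.81 in EMD-/y, -2.89 in S54F and 0.11 in Q133H, and Fads2, a fatty acid desaturase, of -1.39 in wildtype and -0.59 in Q133H.

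The germ-line genes Mybl1, Nanos1 and Tex15 had the lowest median later change of the role groups in wildtype. Mybl1 (GeneID 17864, chr1:9667407-9700439), a transcription factor of male meiosis and relative of Myb, had means at T0, T24 and T48 of 351, 999 and 108 in wildtype, 338, 945 and 112 in EMD-/y, 448, 1906 and 508 in +EMD, 414, 1089.9 and 121 in S54F, 503, 2098 and 765 in del95-99, and 612, 1740.4 and 1126 in Q133H. Its T48 mean in wildtype, EMD-/y and S54F was below the T0 mean, whereas in +EMD, del95-99 and Q133H it was above. It kept a peak of at least 2-fold in every line but Q133H, in which it changed by -0.63. Tex15, of meiotic recombination, had T0, T24 and T48 means of 4.56, 104 and 15.7 in wildtype and 172, 624 and 829.7 in Q133H.

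**Figure D4:**
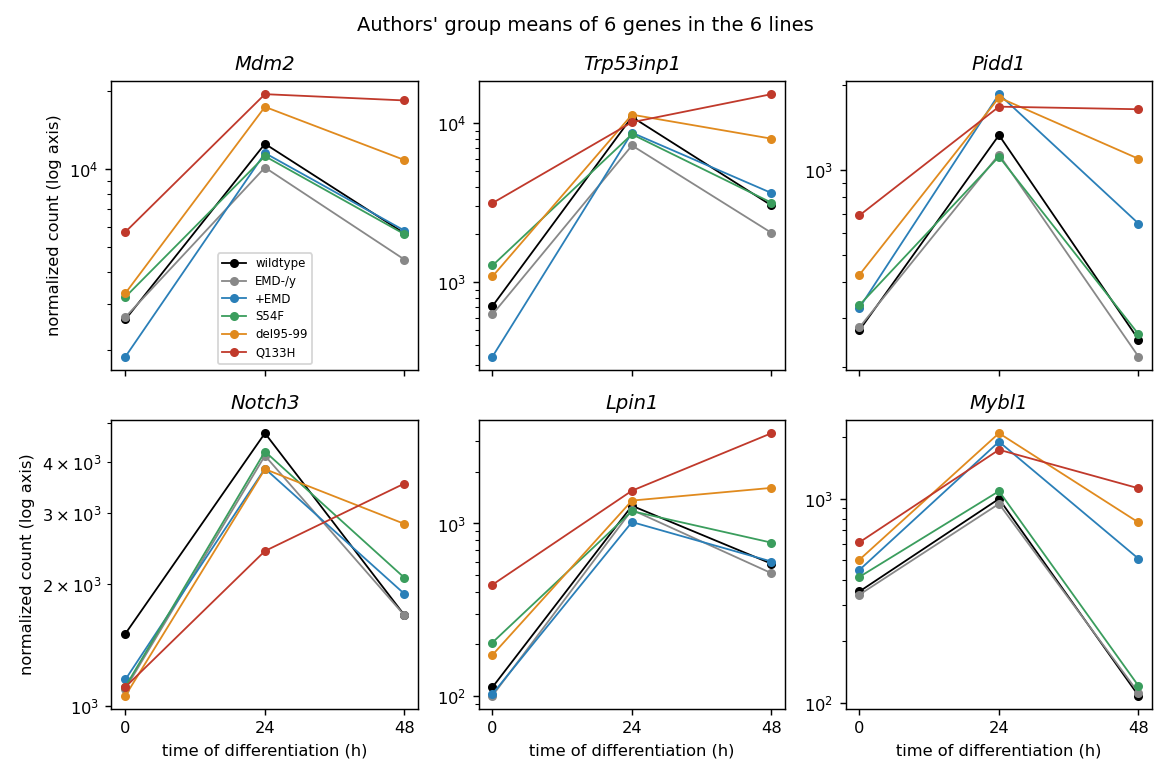
Authors' group means of normalized counts (y axis, log scale) of Mdm2, Trp53inp1, Pidd1, Notch3, Lpin1 and Mybl1 against hours of differentiation (x axis), one coloured line for each cell line, with T0 and T24 from the table of the first day and T48 from that of the second. The Q133H line ends highest at T48 in all 6 panels, and Notch3 shows it lowest at T24.

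The members that rose at least 2-fold from T24 to T48 were 14 in Q133H (5.12% of genes with a T24 mean of at least 50) and 2 in del95-99 (7.15%), and none in +EMD or S54F. In Q133H they were Angpt2, Samd12, Sytl1, Klhdc7a, Tshr, Arhgef4, St14, Krt7, Ermap, Gnal, P2rx6, Slc37a2, Aldh1l1 and Lpin1, and in del95-99 Sytl1 and Ermap. Of those in Q133H, Angpt2, Klhdc7a, Arhgef4, Ermap and P2rx6 had risen less than 2-fold on the first day there. Sytl1, of the synaptotagmin-like family of vesicle proteins, had means at T0, T24 and T48 of 11.8, 349 and 117 in wildtype, 3.22, 119 and 28.3 in EMD-/y, 2.97, 70 and 59.6 in +EMD, 4.38, 47.5 and 26.4 in S54F, 4.02, 44.9 and 119 in del95-99, and 9.83, 43.1 and 206 in Q133H. Its T24 mean in wildtype was above that of every other line. Ermap, an erythroblast membrane protein, rose 15.8-fold in the first day in wildtype, whereas in Q133H its T24 mean of 32.9 was close to its T0 mean of 29.6.

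The tables that set each line against wildtype on 1 day compare the lines on a shared normalization. They use the wildtype libraries of the rule, and the 5 tables of a day share them, so their values are given side by side as a description. The rule also set the wildtype means at T0 and T48 below the T24 mean, which by itself can place another line above wildtype on those days. At T0, members at least 2-fold higher than wildtype numbered 12 in EMD-/y (2.22% of genes with a T24 mean of at least 50), 13 in +EMD (3.17%), 27 in S54F (2.39%), 24 in del95-99 (2.04%) and 70 in Q133H (2.74%). Members at least 2-fold lower were 32 in +EMD (6.67%), the line with the largest rises. The median T0 difference was 0.01 in EMD-/y, -0.22 in +EMD, 0.36 in S54F, 0.34 in del95-99 and 1.13 in Q133H.

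At T24 the medians of the transduced lines lay closer to wildtype than at T0, while single members still differed by at least 2-fold in every line. The median difference from wildtype was 0.07 in EMD-/y, 0.01 in +EMD, -0.09 in S54F, 0.21 in del95-99 and 0.16 in Q133H. Members at least 2-fold higher numbered 9 in EMD-/y (1.68%), 11 in +EMD (5.12%), 5 in S54F (1.91%), 14 in del95-99 (4.64%) and 15 in Q133H (5.34%). Those at least 2-fold lower numbered 3 (0.651%), 18 (7.29%), 10 (3.12%), 13 (8.65%) and 19 (11.0%) in the same order.

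At T48 the medians of +EMD, del95-99 and Q133H stood further above wildtype than at T24. Those of EMD-/y and S54F stayed near wildtype. Members at least 2-fold higher than wildtype numbered 7 in EMD-/y (2.60%), 39 in +EMD (7.58%), 11 in S54F (3.36%), 82 in del95-99 (9.91%) and 106 in Q133H (14.4%), with median differences of -0.00, 0.55, 0.15, 1.28 and 1.95. In Q133H, 67 members were higher at both T0 and T48, a joint count that was not taken over all genes. From T0 to T48 as a whole, members with a net change of at least 1 numbered 80 in +EMD (14.6% of genes with a T24 mean of at least 50), 32 in S54F (15.1%), 84 in del95-99 (11.8%) and 85 in Q133H (8.91%).

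A few members stood far from wildtype at T24. Ptprv was lower in all 5 other lines, with log2 differences of -2.98 in EMD-/y, -2.77 in +EMD, -4.57 in S54F, -4.91 in del95-99 and -4.63 in Q133H. Its means at T0, T24 and T48 were 299, 1529 and 607 in wildtype, 35.6, 170.4 and 18.1 in EMD-/y, 74.7, 228 and 98.2 in +EMD, 46.5, 64.3 and 31.8 in S54F, 33.4, 52.4 and 82.6 in del95-99, and 117, 68.6 and 133.2 in Q133H, so EMD-/y and every line derived from it were low on all days. Prrg4, a membrane protein with a Gla domain, was the reverse, with T24 differences of 1.77, 2.59, 1.59, 2.40 and 2.18 in the same order. The mannosidase Man1a was also higher in all 5, by 1.82, 0.62, 2.18 and 1.98 in the first 4 lines and from a wildtype mean of 109.8 to 887 in Q133H. Its means in +EMD were the closest to wildtype. Keratin 13 (Krt13) was higher by 1.31 in EMD-/y, 2.04 in +EMD, 1.66 in S54F, 1.80 in del95-99 and 1.25 in Q133H.

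Other wide differences at T24 were seen in each transduced line, and most of these members differed in more than 1 line. Sytl1 differed from wildtype by -1.50 in EMD-/y, -2.28 in +EMD, -2.84 in S54F, -2.98 in del95-99 and -2.98 in Q133H (log2). Col7a1 differed by -3.69 in +EMD, -3.02 in del95-99 and -2.49 in Q133H, and was within 2-fold of wildtype in EMD-/y and S54F. Tmem14a, a small membrane protein, was nearly absent in +EMD, with T0, T24 and T48 means of 0.946, 2.93 and 7.41 beside 45.5, 92.1 and 42.2 in wildtype. Klhdc7a, which has near-identical copies in 2 other genes, was nearly absent in Q133H at T24, with a mean of 5.77 beside 317 in wildtype, 79.8 in S54F and 469 in del95-99. Vwa2, a matrix protein, differed from wildtype at T24 by -2.79 in del95-99 and -4.10 in Q133H (log2). Cldn15 differed by -1.19 in +EMD, -2.39 in S54F, -1.57 in del95-99 and -4.05 in Q133H. Angpt2 differed by -2.49, -1.47, -1.76 and -3.74 in the same lines. These 3 genes were thus lowest in Q133H. Cyyr1 differed by -1.11 in +EMD, 1.66 in del95-99 and 2.60 in Q133H. Tex15 differed by 1.18 in EMD-/y, 1.74 in del95-99 and 2.40 in Q133H, and its difference was under 2-fold in +EMD and S54F.

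Against the general course, 5 members had a T24 mean below their T0 mean in all 4 transduced lines: Atp5g2, a subunit of the mitochondrial ATP synthase, the ribosomal proteins Rps13 and Rps29, the glycolytic enzyme Gapdh and the anchoring collagen Col7a1. Gapdh (GeneID 14433, chr6:125161852-125166467) had means at T0, T24 and T48 of 1479, 6184 and 2419 in wildtype, 6891, 36799 and 9711 in EMD-/y, 14962, 7889.5 and 8132 in +EMD, 25757, 8966 and 11660.4 in S54F, 23027, 6604 and 6519.7 in del95-99, and 28765, 9346 and 8158 in Q133H. It was thus highest at T24 in wildtype and EMD-/y and highest at T0 in the transduced lines, and the EMD-/y T24 mean was 5.34 times its T0 mean.

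Rps13 (GeneID 68052) had means at T0, T24 and T48 of 655, 1526 and 339 in wildtype, 522, 1392 and 386 in EMD-/y, 1791, 360.0 and 324 in +EMD, 2183, 407 and 316 in S54F, 1969, 361 and 357 in del95-99, and 2304, 601 and 429.8 in Q133H. Atp5g2 (GeneID 67942) had means of 807, 2475 and 577 in wildtype, 656, 2577 and 754 in EMD-/y, 1853, 596 and 696 in +EMD, 2995, 845 and 858 in S54F, 2693, 593 and 594 in del95-99, and 2923, 492 and 595 in Q133H. Rps29 (GeneID 20090) had means of 96.2, 274 and 60.3 in wildtype, 97.1, 300.4 and 95.5 in EMD-/y, 267, 112 and 75.9 in +EMD, 407, 103 and 99 in S54F, 368, 107 and 76 in del95-99, and 417, 91.6 and 86.2 in Q133H. The 3 genes ran in parallel, between 2.33-fold and 3.92-fold up in wildtype and EMD-/y and then down, and down from a high T0 mean to a steady lower mean in the transduced lines.

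Gapdh, Rps13 and Atp5g2 have near-identical copies in other genes, 75, 5 and 2 of them by alignment of their transcripts (at least 200 bases at 97% identity or more), and 8 members in all have at least 1. How the authors' counting treated reads that fit several copies is not given in the sources used here, so the values of these members are uncertain. No copy of Rps29 was found at that length. Of 30 other cytosolic ribosomal protein genes, none rose or fell by 2-fold from T0 to T24 in wildtype or EMD-/y, while 2, 2, 2 and 1 fell in +EMD, S54F, del95-99 and Q133H, beside 4.32%, 3.62%, 3.49% and 4.23% of all genes. Whether the copies bear on the course of these genes was not tested. Col7a1 had no copy found, and its means at T0, T24 and T48 were 107, 324 and 78.3 in wildtype, 185, 497 and 167 in EMD-/y, 27.3, 21.9 and 42.9 in +EMD, 396, 358 and 268 in S54F, 71.4, 41.7 and 44.7 in del95-99, and 152, 63.3 and 68.6 in Q133H.

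**Figure D5:**
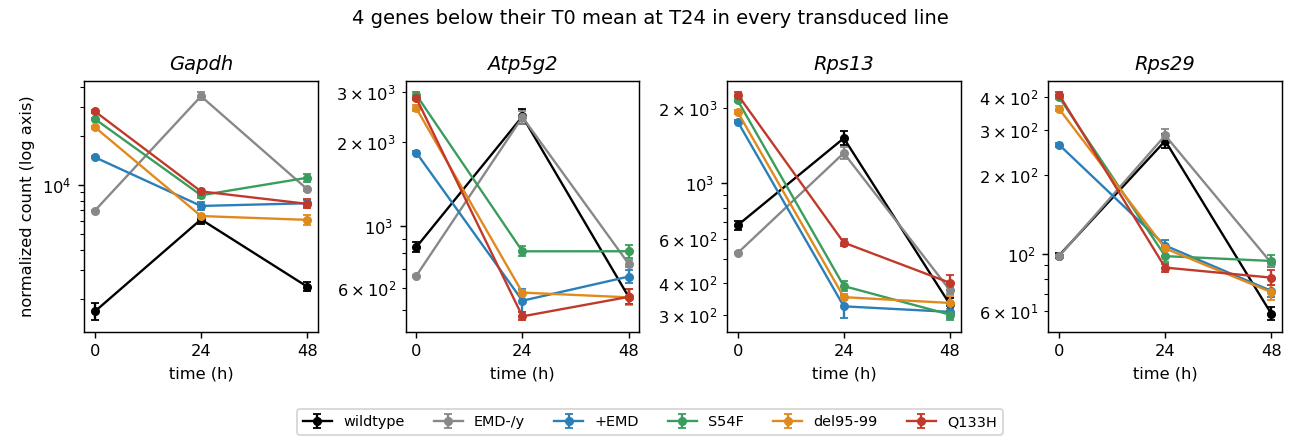
Group means (y axis, log scale) of Gapdh, Rps13, Atp5g2 and Rps29 against hours of differentiation (x axis) in the 6 lines, with points midway between the lowest and highest mean of a group over its tables and bars for that range. Wildtype and EMD-/y peak at T24 in each panel, and the 4 transduced lines start high at T0 and are lower at T24.

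The lists used for comparison held few other members. Of 37 lists, 9 held any member and 15 members stood on one, among them Ptpn14 (Yap and Taz targets), Robo3 (axon guidance), Atg9b (autophagy) and Stra6 (retinoid response). Atg9b rose 15.2-fold in wildtype, peaked in +EMD and S54F, and had a later change of 0.78 in Q133H. Ddit4, the mTORC1 inhibitor that is also a hypoxia target, had T0, T24 and T48 means of 367, 1643 and 401 in wildtype and 916, 1728 and 1576 in Q133H. Over 24 hypoxia targets, 10, 11, 8, 9, 9 and 10 rose in the first day in wildtype, EMD-/y, +EMD, S54F, del95-99 and Q133H, and 2, 2, 1, 1, 0 and 0 peaked, beside 10.8%, 9.90%, 8.26%, 7.58%, 5.40% and 3.97% of all genes that rose and 1.54% or 1.63% that peaked in wildtype or EMD-/y. The median length of the members, 3631 bases, was above the 3047.5 bases of the genes with a T24 mean of at least 50.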

How the data were processed

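RNA from 54 libraries (6 H2K lines at 0, 24 and 48 h, 3 labelled replicates each) was sequenced by the study. Per its methods each of 2 biological replicates was run as 3 technical ones, and the labels do not say which kind a library is. The authors filtered reads with SOAPnuke, aligned them to mm10 with HISAT2 and compared groups with DESeq2, while the counting step is not given in the sources used here. The 27 deposited tables, 15 of a line against wildtype on 1 day and 12 of successive days, hold the authors' group means of normalized counts, here treated as an expression signal, with each gene's length. Each table was normalized on its own, and the mean of a group differed between its tables by up to 1.32-fold over the members. The authors' fold changes, p-values, adjusted p-values and direction calls were also deposited and were not used. Since 0 columns hold per-sample values, the depth of each library is unknown and no test across samples was made here.

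Changes were taken as log2 of the ratio of means plus 1 within 1 table, and rose, fell, higher and lower mean at least 2-fold except where a value of any size is stated. A gene peaked where it rose from T0 to T24 and fell from T24 to T48 in a line's own tables. Shares of all genes were taken over the 10760 named genes with a T24 mean of at least 50 in wildtype and EMD-/y (10759 in Q133H). RefSeq symbols matched 15101 of the 15117 named genes and all members, with positions on GRCm38.p6, the build of mm10. The members and the gene lists were chosen with earlier results of these data known, and the role groups after the values were seen. Named were members on a list, the 10 with the largest smallest change, the 5 most abundant, the 3 members at either end of the peak and of the T24 difference from wildtype in each line, the genes at the threshold and Emd; further members stand as examples of the role groups, chosen after their values were seen. Near-identical copies were found by aligning all GENCODE transcripts of the members with minimap2 2.31-r1302. Scripts ran under Python 3.11.15 with numpy 2.4.6, pandas 2.3.3 and matplotlib 3.10.9, and the rule was tested on simulated data. Alternatives were other change thresholds, T24 minimums and pseudocounts, the tables of each day, predicted genes, and leaving out members with copies.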

Additional observations from a re-analysis of the deposited data

Results flagged for a closer look

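In 5 members the first-day change in Q133H ran against the rise in wildtype and EMD-/y. The T24 minus T0 values there were -2.57 for Atp5g2, -2.17 for Rps29, -1.94 for Rps13, -1.62 for Gapdh and -1.25 for Col7a1 (log2), and the other 3 transduced lines also had T24 means below T0. The difference between the lines was not tested. Of the members at least 2-fold lower at T48 than at T24 in wildtype and EMD-/y, 14 were at least 2-fold higher in Q133H, and this difference was not tested either. Outside the named genes, 13 predicted genes without a numeric GeneID met the same rule. Of these, 9 fell at least 2-fold from T0 to T24 in S54F, del95-99 and Q133H (13 listed) and 9 in +EMD (12 listed), with median first-day changes of -1.87, -2.16, -1.77 and -1.60 in that order. Their peaks in +EMD, S54F, del95-99 and Q133H numbered 3, 1, 0 and 0.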

How the results depend on the processing

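Of 68 alternatives over 15 results, 56 left the value within 1.5 times of the one reported and 12 moved it further. The size of the set followed the rule itself: 127 genes became 299 where a 1.5-fold change was enough, 34 where 3-fold was asked and 207 with no T24 minimum. At 1.5-fold the members that peaked numbered 100 in +EMD, 109 in S54F, 45 in del95-99 and 4 in Q133H, and at 3-fold they numbered 6, 27 and 0 in the first 3 lines. Taken from the tables of each line against wildtype on each day, 88 peaked in +EMD, 89 in S54F and 23 in del95-99, and the cause of that shift was not tested. Shares of all genes were not taken under these alternatives. Leaving out the 8 members with near-identical copies, an alternative chosen after seeing the data, gave 119. No paired analysis was possible because the tables hold group means only, and for the same reason leaving out replicates could not be run.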

Other observations

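Members lay near each other in the genome in 2 places. Depdc7 and Prrg4 on chromosome 2 have annotated starts 108957 bases apart, and Slc37a2 and Robo3 on chromosome 9 have starts 186896 bases apart. Sequence is shared with an overlapping gene in 20 members.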
